A study of Bos taurus with 11 samples.

Results

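The comparison set inner cell masses (ICM) of bovine blastocysts produced with serum and hormones against those of blastocysts produced without serum and with prostaglandin E2 (PGE2). Its members are 7 of the 11 sequenced pools, chosen by the treatment written in the sample labels. The 3 pools of the “SC” group (replicates 23, 25 and 33) came from serum-supplemented embryo production, and the 4 pools of the “SF + PGE2” group (replicates 5, 15, 27 and 37) came from serum-free production supplemented with PGE2. The other 4 pools (“SF”, serum-free without PGE2) were not compared here. They entered the fits in the estimate of the spread between pools and in the filter on low counts, and so in the set of transcripts tested. All pools held ICM from day 7 blastocysts, freed of trophoblastic cells by immunosurgery combined with manual cutting.

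According to the study's methods, the “SC” maturation medium held fetal calf serum, epidermal growth factor, estradiol, FSH and LH, and the “SC” embryos were then cultured in a serum-containing medium. The maturation medium of the “SF + PGE2” group held epidermal growth factor and albumin with none of the serum, estradiol or gonadotropins, and its embryo culture was free of serum. PGE2 was placed in maturation and fertilization by the methods, and also in embryo development by the labels. The effects of serum and of the hormones cannot be told apart in this comparison, nor can those of removing both and of adding PGE2. The methods also name a commercial synthetic oviduct fluid for “SC” embryo culture and a modified one for the serum-free groups. They give the solvent DMSO for “SF”, at the volume of the PGE2 solution, and name none for “SC”. These differences cannot be told apart from the others either. Each pool is a mixture of ICM from several embryos, and the sources used here do not say which production session a pool came from. The methods describe sessions that each held all treatments, so pools of the groups may share a session, and this sharing could not be fitted.

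As background, the cells of the ICM sort into epiblast, the source of the fetus, and hypoblast, which lines the yolk sac. PGE2 is a lipid mediator made from arachidonic acid by the cyclooxygenases, acts through G protein-coupled receptors, and is produced by cumulus cells around ovulation. FSH and LH drive the follicle and the maturing cumulus-oocyte complex, and serum is a mixture of growth factors, lipids, proteins and steroids whose composition is not defined. The comparison therefore asks how far the ICM transcriptome differs between an undefined and a defined route to the blastocyst.

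Transcripts are given by their Ensembl identifiers, since 0 of the 37925 identifiers were matched to the 37063 genes of the RefSeq gene table used here. Gene names, gene groups and the markers of epiblast, hypoblast and trophectoderm were therefore not examined, and the labelled tissue was not checked against its markers. At most 2 transcripts per direction are named, and the others are described by their length, level and number. Reads shared between transcripts of a gene are divided among them by the quantification, so that the values of a single transcript also carry how these reads were divided. In bulk pools, fewer cells of a type and less RNA per cell cannot be told apart.

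The values that describe a library overlapped between the groups. Estimated counts summed to 34.4 M ± 1.74 per pool in “SC” (SD, n = 3) and to 34.1 M ± 3.76 in “SF + PGE2” (SD, n = 4), with a lowest pool of 29.8 M and a highest of 37.8 M. Transcripts with an estimated count of at least 1 numbered 21730 ± 712 and 21988 ± 412. The total, this number, the mean transcript length weighted by counts and the fragment length did not pass an exact two-sided permutation test over pools (p = 0.971, 0.629, 0.4 and 0.4; Benjamini-Hochberg adjusted over these 4, 0.8 to 0.971; 3 pools against 4 cannot go below 0.0286). A single measure could not pass after this adjustment, even with the groups fully apart, so these tests do not show the libraries to be alike. Pools of different groups were nearly as alike as pools of the same group. Spearman's rho across transcripts was 0.882 to 0.905 for the 3 pairs within “SC”, 0.889 to 0.917 for the 6 pairs within “SF + PGE2” and 0.885 to 0.900 for the 12 pairs between them. Transcripts are not independent replicates, so these coefficients are given as a description.

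Of 22067 transcripts that passed a filter on low counts, 8 differed between “SC” and “SF + PGE2” at an adjusted p under 0.05 (0.0363% of those tested). In this count 3 were higher in “SC” (0.0136%) and 5 were lower (0.0227%), by edgeR's quasi-likelihood test with Benjamini-Hochberg adjustment over all 22067. The calls were of distinct kinds. In 6 of the 8 the estimated count rounded to 0 in every pool of a group, and the other 2 were counted in all 7 pools. At an adjusted p under 0.1 the number was 12, of which 3 were higher and 9 lower in “SC”.

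ENSBTAT00000005990.6, a transcript of 1576 bases, was the called transcript that was higher in “SC” and counted in every pool. Its normalized count, the estimated count scaled for depth and effective length, was 1261, 1232 and 926 in “SC” replicates 23, 25 and 33. In “SF + PGE2” replicates 5, 15, 27 and 37 it was 361, 425, 423 and 305. The lowest “SC” pool thus lay above the highest “SF + PGE2” pool by more than the range of either group. The means were 1140 ± 186 (SD, n = 3) and 379 ± 57.4 (SD, n = 4), a 3.01-fold difference, with a log2 fold change of 1.59 (standard error 0.219, edgeR adjusted p = 0.0473). This call was lost with any 1 of the 11 pools left out, when the edgeR adjusted p was 0.0545 to 0.173.

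The transcript next in order of p among those higher in “SC” and counted in every pool was ENSBTAT00000067343.1, of 2179 bases, and it did not pass the adjusted threshold. Its normalized counts were 818, 722 and 960 in “SC” and 215, 219, 382 and 193 in “SF + PGE2”. Every “SC” pool was above every “SF + PGE2” pool, and replicate 27 stood above the other 3 of its group. The means were 833 ± 120 (SD, n = 3) and 252 ± 87.5 (SD, n = 4), with a log2 fold change of 1.72 (standard error 0.285, edgeR adjusted p = 0.134). Without “SF + PGE2” replicate 27 the adjusted p was 0.0445.

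ENSBTAT00000072393.1, a transcript of 3636 bases, was the called transcript that was lower in “SC” and counted in every pool. Its normalized counts were 286, 299 and 343 in the “SC” pools. In the “SF + PGE2” pools they were 929, 1599, 1120 and 1232. The “SC” pools lay close together, and all were far below the lowest “SF + PGE2” pool. The means, 310 ± 30.1 (SD, n = 3) and 1220 ± 282 (SD, n = 4), stood 3.94-fold apart. The call held in 8 of the 11 fits that left out 1 pool, and the log2 fold change ranged from -2.09 to -1.82 over these fits (edgeR adjusted p = 0.0338 to 0.0919).

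The second in order of p in this direction was ENSBTAT00000002240.6, of 3245 bases, which did not pass the threshold. It had normalized counts of 1866, 1440 and 2372 in “SC” and 4126, 4078, 4015 and 4580 in “SF + PGE2”. The “SF + PGE2” pools were close together, the “SC” pools were spread more widely, and the groups did not overlap. The means were 1893 ± 467 (SD, n = 3) and 4200 ± 258 (SD, n = 4), with a log2 fold change of -1.15 (standard error 0.177, edgeR adjusted p = 0.0926). Its adjusted p was 0.0463 without “SC” replicate 33.

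**Figure D1:**
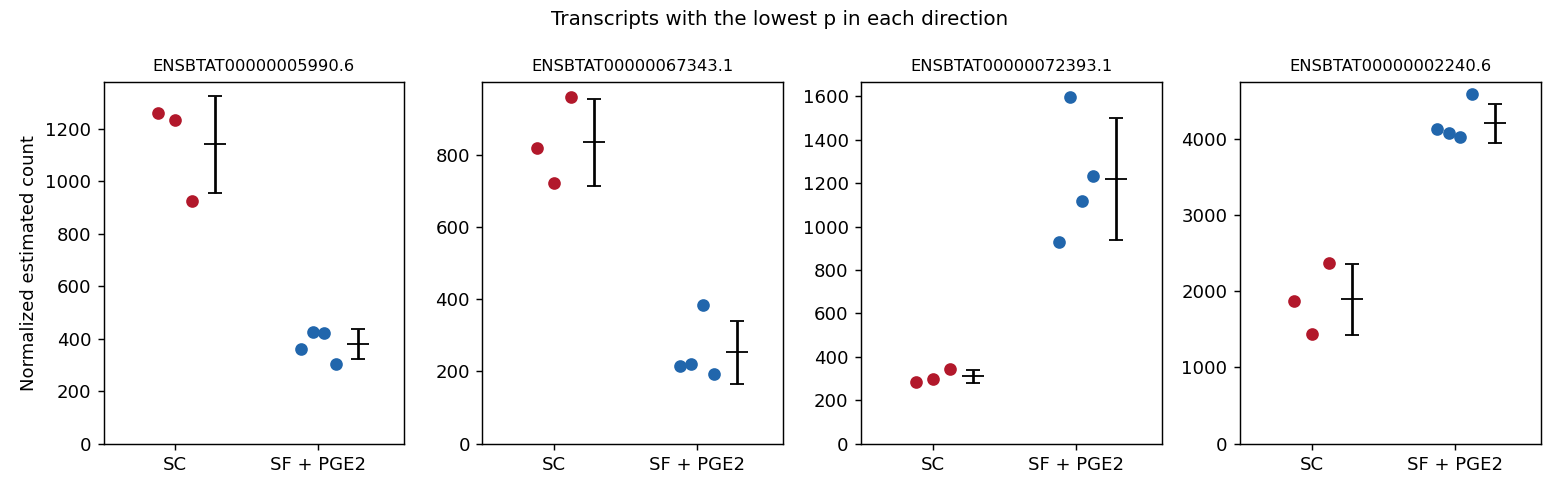
Normalized estimated counts (vertical axis, from 0) of the 4 named transcripts in the “SC” and “SF + PGE2” pools. Points are single pools, in the order of the replicate numbers in the text, and bars give the mean ± SD (n = 3 and 4). The groups do not overlap in any of the 4 panels, and for ENSBTAT00000067343.1 the “SF + PGE2” pool at 382 sits above the other 3.

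The plot of the 4 named transcripts shows separations of 2.22-fold to 3.94-fold between group means that lie between 252 and 4200. Those 4 are the ends of longer series. Among transcripts that were counted in every pool, averaged 50 or more normalized counts and did not overlap between the groups, 860 were higher in “SC”, of which 493 had an edgeR unadjusted p under 0.05. In the other direction the numbers were 826 and 537. Over all 22067 transcripts tested, a wider set, the groups did not overlap in 4.97% on the higher side and 4.99% on the lower side. The unadjusted edgeR p was under 0.05 in 4.02% and 5.26% of the 22067. Selection for no overlap favours a low p, so the 493 and 537 test nothing. The 12 with the lowest p on the higher side were 1.48-fold to 3.30-fold apart (median 1.77), and 0 of them reached 4-fold. The 12 on the lower side were 1.96-fold to 12.4-fold apart (median 2.81), and 3 reached 4-fold. Transcript lengths ran from 1207 to 7374 bases (median 2064) on the higher side and from 1902 to 4819 bases (median 3521) on the lower side. Of each 12, edgeR called 1 and DESeq2's Wald test called all 12. These transcripts were selected on p and on no overlap, so the values describe them and test nothing.

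The 6 other calls were of transcripts with a rounded count of 0 in every pool of a group. They passed the filter on low counts only through pools outside that group, so their calls are given as a description only. In “SC” 4 of them were at 0 in all 3 pools, and in “SF + PGE2” 2 were at 0 in all 4 pools. Lowest in p of the 4 was a transcript of 1770 bases with normalized counts of 196, 125, 171 and 134 in “SF + PGE2”. It was at least 149-fold lower in “SC”, taking 3 counts over the group in place of 0, and it was called in 10 of the 11 fits with 1 pool left out (edgeR adjusted p = 0.0136). A transcript of 2465 bases had 317, 279, 355 and 460 in “SF + PGE2” and was at least 337-fold lower in “SC” (edgeR adjusted p = 0.017, called with 8 of 11). The remaining pair, of 1680 and 2317 bases, was at least 124-fold and 57.4-fold lower in “SC” (edgeR adjusted p = 0.0289 and 0.0473) and was called with 2 and 0 of 11.

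Of the 2 transcripts at 0 in “SF + PGE2”, the longer, of 4888 bases, varied widely within “SC”. Its normalized counts were 1031, 141 and 656 in replicates 23, 25 and 33. All 3 “SC” pools held it, although replicate 25 had the fewest counts. The lower bound of its fold was 819 in favour of “SC” (edgeR adjusted p = 0.017), and 536 without replicate 23. It was called in 6 of the 11 fits with 1 pool left out, and not without replicate 23 (edgeR adjusted p = 0.0636). The shorter, of 1862 bases, had 103, 61.9 and 126 in “SC” and was at least 130-fold higher there (edgeR adjusted p = 0.0473), a call lost with any 1 of the 11 pools left out. These bounds cover counting error only, since reads amplified by PCR without molecular identifiers are not independent molecules.

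Absence from a whole group was more common on the “SC” side, which has 1 pool fewer. Such transcripts passed the filter on low counts only through pools outside that group, “SF” pools included. The part of the filter in the numbers per side was not tested. Of the transcripts tested, 551 were at 0 in all “SC” pools and 187 in all “SF + PGE2” pools. Most were rare in the other group too. Of the 551, 57 had a count in every “SF + PGE2” pool, and 23 of these reached a mean normalized count of 50 there. Of the 187, 38 had a count in every “SC” pool, and 14 reached that mean. The 23 were at least 55.5-fold to 464-fold lower in “SC” (median bound 92.3), and the 14 at least 70.5-fold to 819-fold higher (median bound 99.5). Both sets were picked for their zeros and their level, which favours a low p, so the calls in them are given as a description only. At the adjusted p, DESeq2 called all 23 and 7 of the 14, where edgeR called 4 and 2.

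Below the adjusted threshold, 2048 transcripts had an unadjusted p under 0.05 in edgeR (9.28%), where 1103 would be reached by the threshold alone. Of these, 887 were higher in “SC” (4.02%) and 1161 lower (5.26%). The balance between directions depended on the test. In limma-voom, which called 0 transcripts at the adjusted p (smallest 0.0654), 2099 had an unadjusted p under 0.05 (9.51%), 1103 of them higher (5.0%) and 996 lower (4.51%). The higher side thus held 43.3% of these transcripts in edgeR and 52.5% in limma-voom. Across all transcripts tested the log2 fold change was centred near 0, with a median of -0.01, quartiles of -0.48 and 0.38, and 5th and 95th percentiles of -2.21 and 1.44.

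DESeq2's Wald test called 500 transcripts at an adjusted p under 0.05 (2.27%), 144 higher in “SC” (0.653%) and 356 lower (1.61%). At its unadjusted p the number was 2496 (11.3%), 1001 higher (4.54%) and 1495 lower (6.77%). All 8 edgeR calls were among the 500. With no filter on low counts DESeq2 called 580, 176 higher and 404 lower. Among the 500, 164 had a rounded count of 0 in every pool of a group, 28 of them higher in “SC” and 136 lower. These 164 passed the filter on low counts only through pools outside that group. Another 315 were counted in all 7 pools, with 113 higher and 202 lower. In simulated data for 20659 transcripts, of which 100 were changed 2-fold and 100 others 4-fold, DESeq2 recovered 26% of the 2-fold and 73% of the 4-fold changes with 118 false calls. edgeR recovered 4% and 55% with 2 false calls, and limma-voom 4% and 55% with 1. The changed transcripts were drawn from those averaging 50 or more normalized counts, and all others were left unchanged. It was a single draw, with the spread between pools that edgeR had estimated. In this simulation most 2-fold differences were not detected by edgeR, and the false calls of DESeq2 were more numerous than the changes it recovered. These rates need not hold for the real data.

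Of the 500 DESeq2 calls, 128 were also called in each of the 7 fits that left out 1 compared pool, 33 higher and 95 lower in “SC”. Among the 128, 40 were at 0 in a whole group and 80 were counted in all 7 pools. The 29 of these 80 that were higher in “SC” differed by 0.42 to 1.72 on the log2 scale (median 0.80), with mean normalized counts of 247 to 118832 (median 5392). The 51 that were lower differed by 0.39 to 3.63 (median 1.47), with mean counts of 74.4 to 15370 (median 1088). The higher set held smaller differences in more highly counted transcripts, and the lower set larger differences in less highly counted ones. A less highly counted transcript needs a larger difference to be called. Selection on the calls may therefore set this link of size with count in part. These fits share most of their pools, so that the count is of calls that do not hang on a single compared pool, not of independent repeats. The “SF” pools, which enter the estimate of the spread, were not left out in turn with DESeq2.

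Whether the 3 “SC” pools and the 4 “SF + PGE2” pools overlap was also counted with no model. The groups did not overlap in 2199 transcripts (9.97%), 1097 higher in “SC” (4.97%) and 1102 lower (4.99%). With upper quartile scaling the numbers were 1226 higher and 1007 lower, so the balance of directions depended on the scaling. Of the 15945 tested transcripts counted in all 7 pools, 939 were higher in “SC” without overlap and 875 lower. Means were at least 2-fold apart in 220 of the 939 and 345 of the 875, and at least 4-fold apart in 24 and 63.

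**Figure D2:**
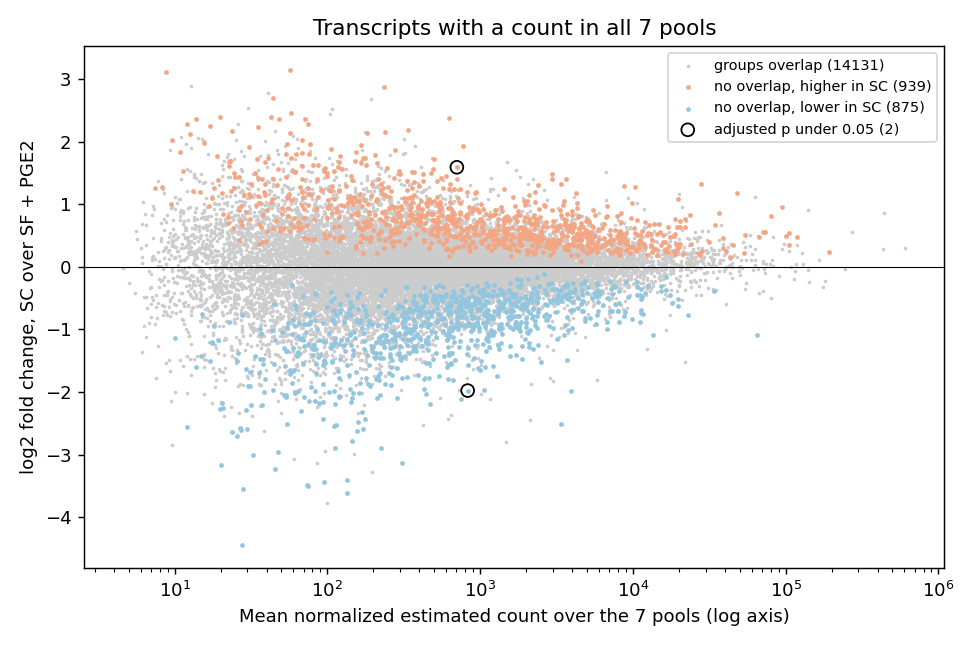
Log2 fold change of “SC” over “SF + PGE2” (vertical axis) against the mean normalized count over the 7 pools (horizontal log axis) for the 15945 tested transcripts counted in all 7 pools. Orange and blue points are the 939 and 875 transcripts whose groups do not overlap, and the 2 open circles are those with an edgeR adjusted p under 0.05. At the right the orange points outnumber the blue ones and lie close to 0.

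The plot of fold change against mean count shows how the size of the differences narrowed as counts increased. The median absolute log2 fold change was 0.92 among 6320 transcripts with a mean normalized count under 50, 0.45 among 8246 at 50 to 500, 0.26 among 6191 at 500 to 5000 and 0.21 among 1310 at 5000 or more. The spread between pools narrowed in step. The median coefficient of variation within “SC” was 95.7%, 43.2%, 21.4% and 13.9% in these classes, and within “SF + PGE2” it was 98.8%, 42.2%, 21.1% and 14.3%. The classes are of counts and not of levels per length, and were chosen after the values had been seen, so that they are given without a test.

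The direction of the non-overlapping transcripts shifted with the count. Under 50, 190 were higher and 182 lower in “SC” (3.01% and 2.88% of the class). At 50 to 500 the lower side was larger, with 333 higher and 449 lower (4.04% and 5.45%). At 500 to 5000 the sides were close, with 399 and 407 (6.44% and 6.57%), and their order turned with upper quartile scaling and without the length offset (402 and 400). At 5000 or more, 175 were higher and 64 lower (13.4% and 4.89%), where the share over all transcripts was 4.97% and 4.99%. The unadjusted edgeR p put more on the lower side under 50 (146 higher and 291 lower), at 50 to 500 (168 and 346) and at 500 to 5000 (397 and 442). The balance in the lowest class thus depended on the measure. In the highest class the unadjusted edgeR p gave 176 higher and 82 lower. The higher side was the larger there in all 29 alternative fits, limma-voom, DESeq2 and each pool left out included.

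A second shift followed transcript length. Among 2498 transcripts under 1000 bases, 185 were higher and 72 lower in “SC” without overlap (7.41% and 2.88%). At 1000 to 2000 bases the numbers were 462 and 308 of 7096 (6.51% and 4.34%). From 2000 bases the order turned, with 346 higher and 534 lower of 8975 at 2000 to 4000 bases (3.86% and 5.95%) and 104 and 188 of 3498 at 4000 bases or more (2.97% and 5.37%). The median log2 fold change went from 0.06 and 0.04 in the shorter classes to -0.06 and -0.09 in the longer ones. These medians are small beside the spread of single transcripts. Among those counted in all 7 pools, the non-overlapping transcripts had a median length of 1707 bases when higher in “SC” and 2519 bases when lower, against 2114 bases for all tested.

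**Figure D3:**
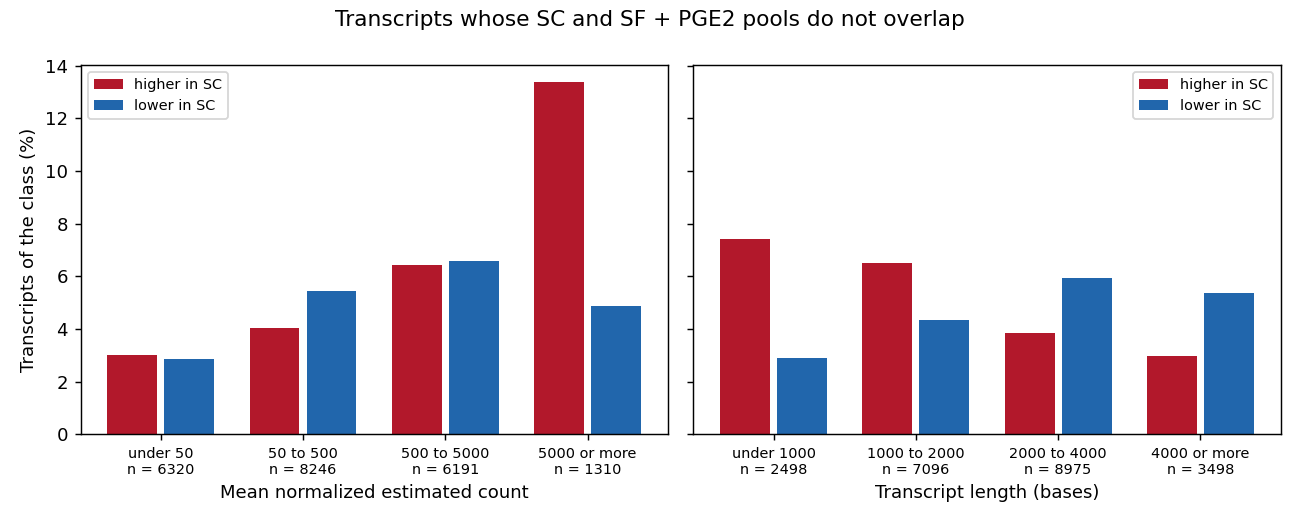
Percent of the tested transcripts of each class whose 3 “SC” and 4 “SF + PGE2” pools do not overlap (vertical axis), higher (red) or lower (blue) in “SC”, by mean normalized count (left) and by transcript length in bases (right). Red is above blue at counts of 5000 or more (13.4% and 4.89%) and below 2000 bases, and blue is above red from 2000 bases up.

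The plot by class shows the shift with count at its highest class and the shift with length at 2000 bases. In the 29 alternative fits, at the unadjusted p, the lower side was the larger in both classes from 2000 bases up in all 29. Under 1000 bases the higher side was the larger in 28 of the 29, and at 1000 to 2000 bases in 24 of the 29. Under 1000 bases the excess on the higher side leaned most on “SC” replicate 33. Without replicate 33, edgeR's unadjusted p gave 60 higher and 48 lower there, against 100 and 38 with all pools. At 1000 to 2000 bases it gave 342 higher and 361 lower, against 350 and 298. DESeq2 without this pool gave 67 and 88, and 356 and 518. At 1000 to 2000 bases the order did not turn with this pool alone. DESeq2 gave 263 higher and 333 lower without “SC” replicate 23, and 320 and 393 without replicate 25. With the low-count filter dropped, edgeR gave 300 and 309. In those fits the higher side stayed the larger under 1000 bases. The length of what was sequenced overlapped between the groups, and “SC” replicate 33 had the lowest mean length of the 7 pools. The mean transcript length weighted by counts was 2327, 2284 and 2202 bases in “SC” and 2363, 2367, 2237 and 2295 bases in “SF + PGE2”, and the difference between length and effective length, a measure of fragment size, was 482 ± 7.77 bases (SD, n = 3) and 466 ± 23.2 bases (SD, n = 4). The part of these library values in the shift with length was not tested. Leaving out the length offset left its order in each of the 4 classes as it was. The excess under 1000 bases shrank, to 161 higher and 84 lower without overlap, against 185 and 72 with the offset.

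The shifts met in short, highly counted transcripts. Of 687 transcripts under 2000 bases that averaged 5000 or more normalized counts, 122 were higher in “SC” without overlap and 12 lower (17.8% and 1.75%). Of the 623 that were as highly counted and 2000 bases or longer, 53 were higher and 52 lower (8.51% and 8.35%). At 500 to 5000 the numbers were 240 higher and 110 lower of 2585 under 2000 bases (9.28% and 4.26%). From 2000 bases they were 159 higher and 297 lower of 3606 (4.41% and 8.24%). The differences behind the 122 were small, 1.11-fold to 2.51-fold with a median of 1.32, and 24 of them reached 1.5-fold. At the unadjusted edgeR p the 687 gave 113 higher and 22 lower, and the 623 gave 63 and 60. Over 20 of the alternative fits, those other than the DESeq2 fits on fewer pools or with no filter, the 687 gave 81 to 135 higher and 5 to 29 lower.

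As a share of a pool's estimated counts, these 687 transcripts overlapped between the groups. They took 36.2%, 38.0% and 38.6% in “SC” replicates 23, 25 and 33, and 34.7%, 34.7%, 37.8% and 36.3% in “SF + PGE2” replicates 5, 15, 27 and 37. Replicate 27 of “SF + PGE2” lay between the “SC” pools, and its group was otherwise at or just above the lowest “SC” pool or below it. The means were 37.6% ± 1.24 (SD, n = 3) and 35.9% ± 1.49 (SD, n = 4). The 623 longer ones took 28.2% ± 0.742 and 27.8% ± 0.693. A transcript by transcript excess of one direction thus stood beside sums that did not separate the groups.

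**Figure D4:**
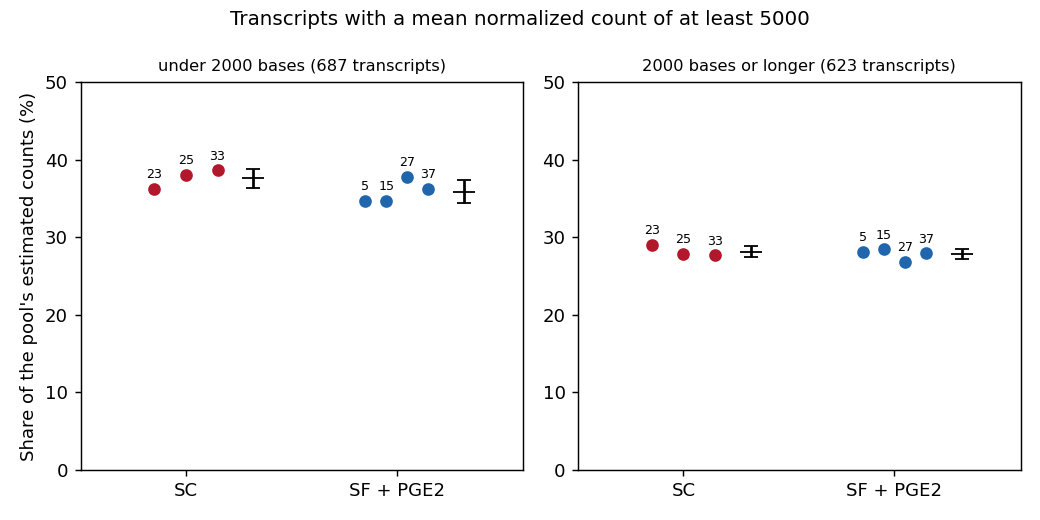
Share of each pool's estimated counts, in percent (vertical axis, from 0), taken by the 687 transcripts under 2000 bases (left) and the 623 of 2000 bases or longer (right) that averaged 5000 or more normalized counts. Points are pools, marked by replicate number, with the mean ± SD beside them. On the left “SF + PGE2” replicate 27, at 37.8%, lies among the “SC” pools.

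The plot of shares by pool gives the same quantity for both length groups, and in neither are the “SC” pools apart from all “SF + PGE2” pools. How far the calls themselves rest on single pools was followed by leaving out each of the 11 in turn. edgeR then called between 0 and 10 transcripts. It called 0 without “SC” replicate 23, when the smallest adjusted p was 0.0636 and the unadjusted p gave 607 higher and 927 lower, and 10 without “SC” replicate 33. Without “SF + PGE2” replicates 5, 15, 27 and 37 it called 2, 5, 7 and 7, and without “SC” replicate 25 it called 6. The filter on low counts was applied anew in each fit. Without “SC” replicates 23, 25 and 33 the transcripts tested numbered 23345, 23414 and 23370, against 22067 with all pools. Without “SF” replicates 1, 3, 13 and 35, which are not compared, it called 5, 3, 4 and 1 among 21706, 21626, 21827 and 21696 transcripts tested. With the 7 compared pools alone in the fit it called 0 of 20399 tested (smallest adjusted p = 0.114), with 836 higher and 1029 lower at the unadjusted p, and DESeq2 called 564. In every one of these fits that made a call, more transcripts were lower than higher in “SC”.

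**Figure D5:**
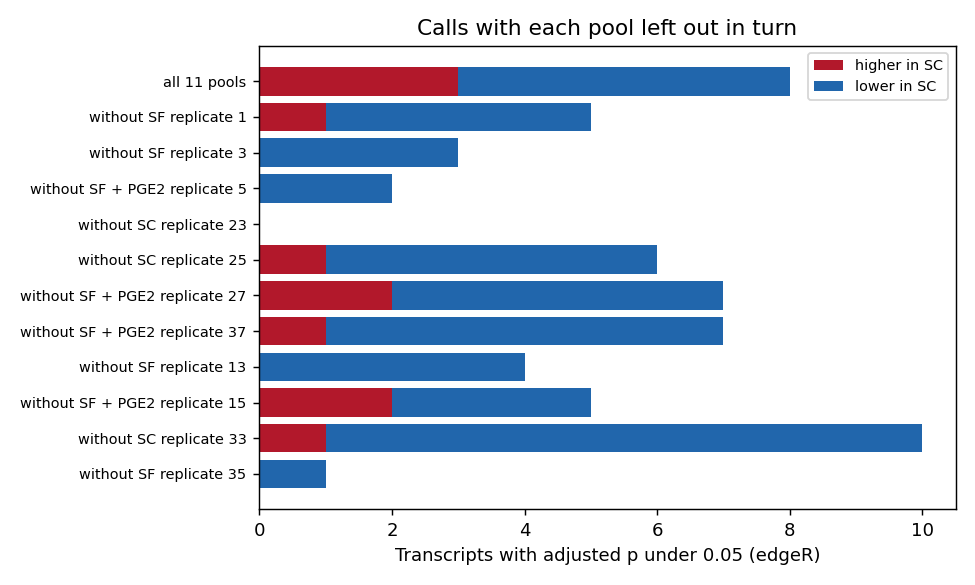
Number of transcripts with an edgeR adjusted p under 0.05 (horizontal axis) between “SC” and “SF + PGE2”, higher (red) and lower (blue) in “SC”, with all 11 pools and with each pool left out. The bar is empty without “SC” replicate 23 and reaches 10 without “SC” replicate 33, against 8 with all pools.

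The plot of calls with each pool left out shows red, the higher side, at 0 to 2 transcripts and blue, the lower side, at 0 to 9. The transcripts at 0 in “SC” of 1770 and 2465 bases and ENSBTAT00000072393.1 held their calls most often, in 10, 8 and 8 of the 11 fits with a pool left out, and ENSBTAT00000005990.6 in 0.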

How the data were processed

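RNA of 11 pools of bovine ICM was sequenced by the authors as full-length cDNA (SMART-Seq v4, Nextera XT), with paired-end reads, no molecular identifiers and no strand marks. The authors ran Salmon (1.1.0 in the submitters' processing notes) on Ensembl cDNA of ARS-UCD1.2. The deposited values per transcript are an estimated count (expected count, not normalized), TPM scaled by the authors' Salmon run, and length and effective length in bases. TPM was used only to check that it sums to 1000000 per pool. The study summed transcripts to genes and tested them with DESeq2 (1.26.0 in the submitters' notes). No table used here pairs transcripts with genes, so the planned tests of genes, gene lists, genes measured by RT-qPCR and markers were not run.

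Estimated counts were rounded and filtered with filterByExpr over the 3 groups. Groups were compared by the two-sided quasi-likelihood F-test of edgeR 4.0.16 (R 4.3.3) on all 11 pools with a coefficient per group, TMM and an effective length offset, called at a Benjamini-Hochberg adjusted p under 0.05. Normalized counts are scaled by TMM and effective length. Named transcripts had a count of at least 1 in all 7 pools, a mean normalized count of at least 50, no overlap between the groups, and the 2 lowest p per direction. Alternatives were DESeq2 1.42.0 (662 adjusted p-values were NA and stayed NA), limma-voom (limma 3.58.1), other scalings and filters, and pools left out. The scripts were tested on simulated data. The comparison, lists, rules and tests were chosen with earlier results of these data known. The labels give separate replicate numbers but no source of each pool, so p-values measure the spread between these pools, which may in part be technical. The labels and the study's methods differ on RNA input and PCR cycles of the cDNA step.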

Additional observations from a re-analysis of the deposited data

Results flagged for a closer look

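ENSBTAT00000067343.1 had a normalized count of 382 in “SF + PGE2” replicate 27, against 193 to 219 in the other 3 pools of that group. The gap to the nearest pool was 0.860 of the group's range, above Dixon's 95% critical value for 4 pools. It was the 1 group flagged of 12 groups of 4 pools tested, and chance flags about 1 in 20. The 3 “SC” pools are too few for this check. The cause was not tested.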

How the results depend on the processing

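The number of transcripts called moved from 8 (3 higher and 5 lower in “SC”) to 500 with DESeq2 (144 and 356), 0 with limma-voom, 0 with edgeR on the 7 compared pools, 5 with no filter on low counts (1 and 4) and 5 with robust dispersion (1 and 4). It was 8 with DESeq2's size factors, upper quartile scaling or no length offset, and 10 with the stricter filter. With a pool left out in turn it ranged from 0 to 10 (0 to 2 higher, 0 to 9 lower). Added after seeing the data, DESeq2 called 580 with no filter on low counts (176 and 404), 564 on the 7 compared pools (200 and 364) and, without “SC” replicate 23, 25 or 33, 403, 483 and 735, and without “SF + PGE2” replicate 5, 15, 27 or 37, 411, 369, 401 and 577 (52 to 241 higher, 231 to 557 lower). The share of transcripts at the unadjusted p that were higher in “SC” was 40.1% in DESeq2 with all pools, 28.2% without “SC” replicate 23 and 32.3% without replicate 25. With 1 of the 7 pools left out, the “SC” minus “SF + PGE2” difference ranged from -1.14 to 1.53 M for total counts and from -557.5 to 135 for transcripts counted. The named transcripts kept their direction in every alternative run, which their selection for no overlap between the groups largely fixed in advance. The causes of these changes were not tested. The planned gene and gene list alternatives were not run, for want of a table pairing transcripts with genes. No paired analysis was possible because the groups share no replicate number and no source used here links a pool to its production session. In the simulation, with 3 pools against 4, most 2-fold differences were beyond edgeR's reach. In the data, transcripts counted under 50 varied by nearly their own mean between pools.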
